A study of Mus musculus with 70 samples.

Results

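Iron handling and hepcidin genes were followed through liver tissue and sorted liver macrophages of mice. The 10 genes were chosen by name: Hamp, Hamp2, Slc40a1, Tfrc, Trf, Ftl1, Fth1, Bmp6, Id1 and Slc11a1. All 10 were present in each of the 3 count tables, among 25089 gene symbols in the series. The 70 libraries come from total liver or from macrophages sorted as F4/80high CD11blow, in both sexes, after 24 weeks on a control or a NASH (nonalcoholic steatohepatitis) diet. Lyz2.Cre is a Cre recombinase driven by the lysozyme promoter of myeloid cells. The mice labelled Lyz2.Cre+/+, which carry it, are called WT. Most of their sample titles say WT, but those of their NASH livers give no genotype. The OpnKI Mye mice are called KI. Their name stands for a myeloid knock-in of osteopontin, a secreted protein encoded by Spp1. The labels give no further allele of the KI mice and no age beyond the time on the diet. Groups of tissue, sex, genotype and diet hold 4 libraries each, except that the NASH macrophage groups hold 5 (males) or 6 (females). Nothing in the labels says whether the libraries of a group came from separate animals, so p-values measure only the spread between these libraries.

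Hepcidin, the peptide encoded by Hamp, is made by hepatocytes and is the hormone that limits iron entry into plasma. It binds ferroportin (Slc40a1), the cellular iron exporter, and causes its breakdown. Sinusoidal endothelial cells secrete Bmp6 when liver iron is high, and hepatocytes answer through SMAD proteins by transcribing Hamp and Id1, while interleukin 6 acts on Hamp through STAT3. Kupffer cells, the resident macrophages of the liver, take up aged red cells, recover their iron and return it to plasma through ferroportin, where transferrin (Trf) carries it.

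Hamp lies on chromosome 7 (30942368 to 30944032, minus strand, GRCm38, the build also named mm10) and Hamp2, a second hepcidin gene of the mouse, lies beside it (30922372 to 30924681, minus strand). The sequences before their starts are shown because Hamp2 differed in level between the sexes, while no such difference was called for Hamp. Each run below is the 250 bases before the transcription start in RefSeq (GRCm38.p6), at chr7:30944030-30944279 for Hamp and chr7:30924182-30924431 for Hamp2, on the minus strand. Capitals mark GGCGCC, the core of the BMP response element, and TTCNNNGAA, the core of a STAT site, both searched on either strand, which read alike because the motifs are palindromes.
Hamp: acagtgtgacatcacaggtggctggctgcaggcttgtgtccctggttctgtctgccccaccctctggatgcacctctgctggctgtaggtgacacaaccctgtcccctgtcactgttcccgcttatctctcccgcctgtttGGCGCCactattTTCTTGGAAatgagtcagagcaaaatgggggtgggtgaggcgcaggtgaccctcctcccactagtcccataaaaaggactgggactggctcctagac
Hamp2: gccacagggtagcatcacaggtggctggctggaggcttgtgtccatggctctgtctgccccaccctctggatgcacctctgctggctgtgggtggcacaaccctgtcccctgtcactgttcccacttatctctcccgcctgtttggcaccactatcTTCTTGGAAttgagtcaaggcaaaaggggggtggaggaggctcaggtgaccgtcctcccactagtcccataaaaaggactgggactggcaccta
The Hamp run holds GGCGCC at -109 from the start and TTCNNNGAA at -97. The Hamp2 run holds TTCNNNGAA at -94, and the letters GGCGCC are not in its window. The runs were 89.7% identical over 253 aligned columns. Among 32851 RefSeq promoter windows of 250 bases before to 50 after a start, 11.9% held GGCGCC, 8.3% held TTCNNNGAA and 0.645% held both. Windows were found for 7 of the 10 genes, and of the other 5 only Tfrc held either motif, a GGCGCC at -89 in 1 of its 2 windows.

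The second set of sequences is the iron-responsive elements, short RNA hairpins to which iron regulatory proteins bind, shown because 4 of the 10 genes carry them. In the 5′ UTR such an element is known to hold back translation when iron is low, and in the 3′ UTR of Tfrc the elements are known to protect the mRNA. A hairpin pattern was searched in the GENCODE M21 transcripts: an unpaired C, 5 bases, CAGTGN with N not G, and 5 bases pairing with the first 5. Capitals mark that CAGTGN loop, and positions count from the first base of 1 GENCODE transcript per gene.
Fth1 (5′ UTR, bases 87 to 115): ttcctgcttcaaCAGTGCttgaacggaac
Ftl1 (5′ UTR, bases 78 to 106): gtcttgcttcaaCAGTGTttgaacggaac
Slc40a1 (5′ UTR, bases 90 to 118): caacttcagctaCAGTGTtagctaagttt
Tfrc (3′ UTR, bases 3315 to 3343): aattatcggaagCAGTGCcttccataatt
Tfrc (3′ UTR, bases 3694 to 3722): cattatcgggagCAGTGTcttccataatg
Tfrc (3′ UTR, bases 3759 to 3787): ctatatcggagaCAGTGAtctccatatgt
Tfrc (3′ UTR, bases 3806 to 3834): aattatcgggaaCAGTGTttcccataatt
No other of the 10 genes held the pattern, which occurred in 332 of 55341 genes (0.6%). Fth1 (chromosome 19, 9980598 to 9985098, plus strand) and Ftl1 (chromosome 7, 45457944 to 45459884, minus strand) encode the heavy and light subunits of ferritin, the iron storage shell. Slc40a1 lies on chromosome 1 (45908068 to 45926523, minus strand) and Tfrc, the receptor that takes up iron-loaded transferrin, on chromosome 16 (32608920 to 32632794, plus strand).

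Total counts per library ran from 11245097 to 29966174. In male liver, replicates 3 and 4 of the WT control group differed by less than the sampling noise over genes with summed counts of 20 to 200. They were counted as 1 sample, the mean of their raw counts, which leaves n = 3. Replicate 4 weighs more in that mean, with a total of 18765036 counts against 11245097 in replicate 3. In abundant genes these 2 differed, with Trf at 13016 and 24678 CPM, Ftl1 at 1812 and 3562 CPM and Hamp at 377 and 649 CPM in that order. The combined library and the male macrophage WT control replicate 4 carry sex genes that go against their label, and are named as labelled below. Of the 38 macrophage libraries, 10 had Lyz2 under 500 CPM, the others being at 1473 CPM or more, and results were recomputed without these 10. In liver, Lyz2 per total count also differed between compared groups. It was 139 to 310 CPM in male WT NASH and at most 54.8 CPM in male KI NASH. On the control diet male WT held 33.4 to 96.04 CPM and male KI at most 26.8 CPM. Female WT livers held at most 2.58 CPM on the control diet and 2.15 CPM on the NASH diet. Female KI livers held 19.9 to 43.4 CPM and 1.25 to 68.9 CPM in that order. How these Lyz2 levels relate to the genotype labels was not tested. In macrophages on the control diet Spp1, given per total count, was 7.12 to 11.3 CPM in male KI against 0.268 to 0.516 in male WT, and 1.43 to 2.47 in female KI against 0 to 0.199 in female WT. Male livers on the NASH diet went the other way, as WT libraries held 133 to 698 CPM of Spp1 and KI libraries 22.2 to 65.8 CPM. In female NASH livers the ranges overlapped, with 53.4 to 92.8 CPM for WT beside 26.6 to 58.0 CPM for KI. Macrophage ranges on the NASH diet overlapped too, at 43.7 to 199 (KI) against 5.72 to 55.9 CPM (WT) in males. Female NASH macrophages were at 2.17 to 102 (KI) against 1.15 to 11.1 CPM (WT). KI thus does not mark the group with more Spp1 in NASH liver. The resident macrophage markers Clec4f and Cd5l had medians of 9923 and 10697 CPM in the sorted macrophages.

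**Figure D1:**
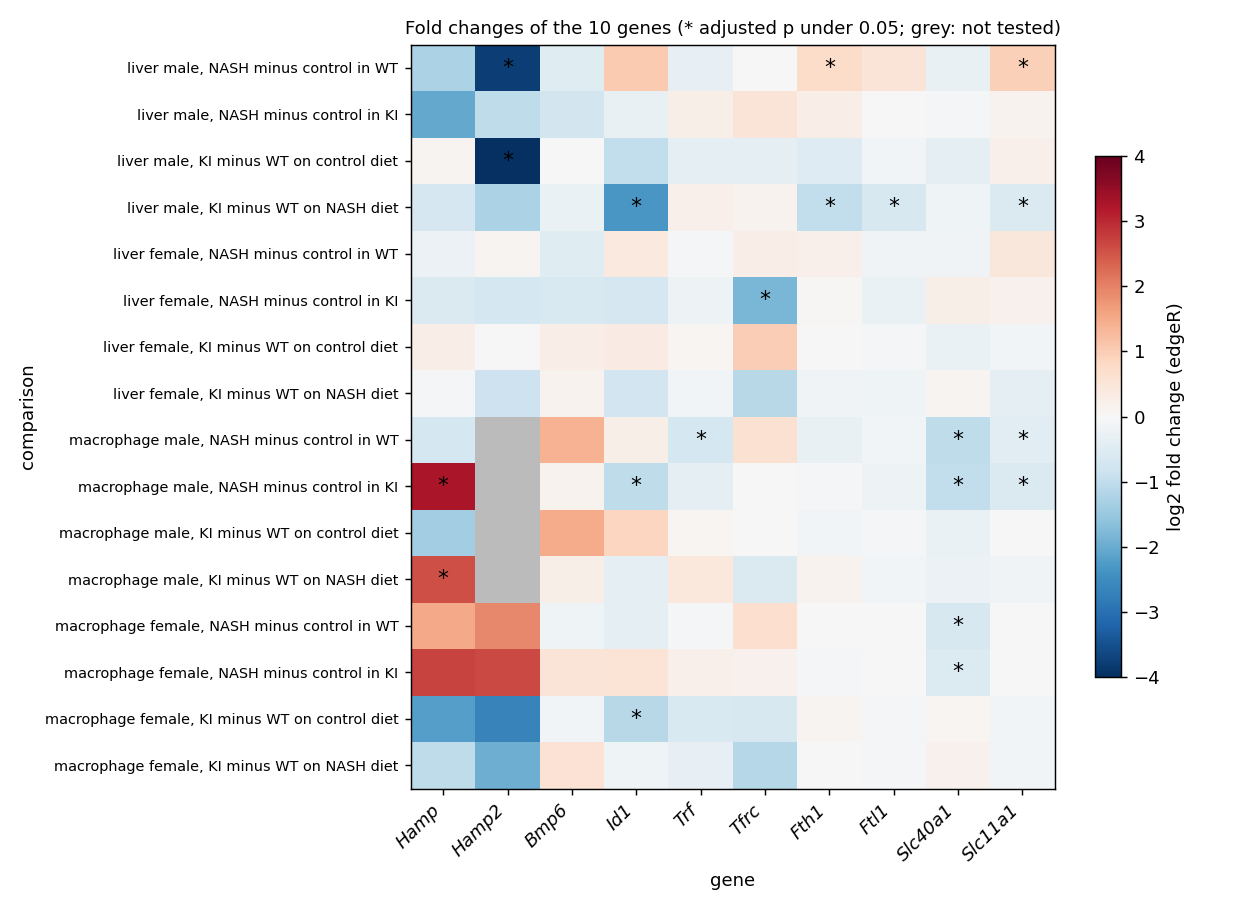
Log2 fold changes (edgeR, colour) of the 10 genes, in columns, for the diet and genotype comparisons in each tissue and sex, in rows; a star marks an adjusted p under 0.05 and grey marks a gene not tested. Slc40a1 is starred in all 4 diet comparisons of macrophages and in none of liver, and the darkest liver entries, for Hamp2, shrink without the library with contradicting sex genes.

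Levels are given in CPM, a gene's counts scaled to library size with TMM factors over both sexes of a tissue, and a gene is said to rise or fall where edgeR's quasi-likelihood test gave a Benjamini-Hochberg adjusted p under 0.05 over all genes tested. In male WT liver the NASH diet changed 21.0% of the 12988 genes tested, and 3 of the 10 iron genes (2 higher, 1 lower). In male KI liver the diet changed 0% of genes and none of the 10, with 2 of the 10 and 847 of all genes at an unadjusted p under 0.05, while DESeq2 called 0 of the 10 and 41 of all genes. Male KI and WT livers differed at 4.67% of genes on the control diet, with 1 of the 10 lower, and at 37.0% on the NASH diet, with 4 of the 10 lower. The diet effect differed between the male genotypes at 1.13% of genes and at none of the 10 by edgeR. Unadjusted p was under 0.05 there for 4 of the 10 and 2602 of all genes. DESeq2 called 713 of all genes there and 1 of the 10, Trf (0.58, KI minus WT, adjusted p = 0.00888). In female liver the diet changed 0.0526% of 13315 genes in WT and 8.83% in KI, the genotypes differed at 7.57% on the control diet and 0.0901% on the NASH diet, and the diet effect differed at 4.77%. Of the 10 genes only Tfrc passed in any of these 5 female comparisons, in KI. Unadjusted p was under 0.05 for 1, 0, 3 and 1 of the 10 in the female comparisons without a call (diet in WT, genotype on control, genotype on NASH, difference of diet effects), and DESeq2 called 0, 0, 0 and 1. Of all 13315 genes, 1829, 3345, 1728 and 3039 had an unadjusted p under 0.05 in that order. DESeq2 called 327, 1630, 158 and 1253 of all genes.

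Hamp in male WT liver was 753, 844 and 548 CPM on the control diet and 223, 337, 114 and 479 CPM on the NASH diet. The 548 CPM comes from the mean counts of replicates at 377 and 649 CPM, and 377 CPM lies inside the NASH range. The log2 fold change of -1.26 ± 0.66 (SE) did not pass the test (adjusted p = 0.188, edgeR). In male KI liver Hamp was 1463, 812, 561 and 195 CPM on the control diet and 65.9, 58.0, 275 and 330.4 CPM on the NASH diet. These ranges overlap, since 1 control liver at 195 CPM lies among the NASH livers, and the log2 fold change of -2.05 ± 0.64 had an adjusted p of 0.507 by edgeR against an unadjusted one of 0.00623. In female WT liver Hamp was 682, 424, 876 and 793 CPM on the control diet and 268, 235, 1019.6 and 808 CPM on the NASH diet. In female KI liver it was 796, 475, 1311 and 722 CPM on the control diet and 758, 250.01, 558 and 669 CPM on the NASH diet. The 4 female ranges all overlap. Mean Hamp per group thus ran from 182 ± 141 CPM (SD, n = 4) in male KI NASH to 826 ± 351 CPM (SD, n = 4) in female KI control, and it passed in no liver comparison of diet, genotype or sex.

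Hamp2 divided the livers by sex. In female WT liver it was 377, 328, 318 and 516 CPM without and 612, 486, 210.3 and 351 CPM with the NASH diet. In female KI liver the values were 217, 299, 363 and 614 CPM without and 392, 166, 184 and 191 CPM with it. In male liver it was 10.3, 11.6, 12.7 and 5.45 CPM in WT NASH, 9.45, 6.29, 6.32 and 12.9 in KI control, and 4.62, 2.48, 7.21 and 2.41 in KI NASH. The male WT control livers had 25.1, 30.1 and 366 CPM, the last being the library whose sex genes go against its label. Every female library was thus above every male library except that library. In KI on the control diet Hamp2 was higher in females by a log2 fold change of 5.42 ± 0.67 (adjusted p = 8.02e-07, edgeR), where 35.6% of 13415 genes differed between the sexes. In WT on the control diet, where 30.7% of genes differed, the value was 1.45 ± 0.62 (adjusted p = 0.0772), and 3.80 (adjusted p = 7.61e-06) without the library with contradicting sex genes. Male and female livers were deposited in separate tables, so sex and any difference in handling between the tables cannot be told apart. The spliced Hamp transcript has 410 bases and that of Hamp2 420, and per kilobase the mean levels of female WT control liver were 1693 CPM for Hamp and 916 CPM for Hamp2, against 1848 and 20.8 CPM in male KI control liver. The transcripts are 92.4% identical with a longest shared run of 87 bases, so a share of the reads of each could be counted to the other.

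The calls of Hamp2 within male liver depend on that same library. Hamp2 fell with the NASH diet in WT by 3.77 ± 0.77 on the log2 scale (adjusted p = 0.00529, edgeR), and was lower in KI than in WT on the control diet, with a log2 fold change of -4.003 ± 0.78 (adjusted p = 0.0185). In KI against WT on the NASH diet it was not called (-1.26 ± 0.72, adjusted p = 0.182), and was lower in KI without the combined library (-1.26, adjusted p = 0.0155). Without that library the diet and control-diet values were -1.40 (adjusted p = 0.0250) and -1.63 (adjusted p = 0.0411), so both calls held with a smaller size, each on 2 WT control livers at 25.1 and 30.1 CPM. The second call was lost without KI control replicate 2, at an adjusted p of 0.0513. The response of WT livers to the diet differed between the sexes at 1.68% of genes, and the difference (female minus male) for Hamp2 was 3.92 ± 0.84 (adjusted p = 0.0174) and 1.57 (adjusted p = 0.102) without the combined library.

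**Figure D2:**
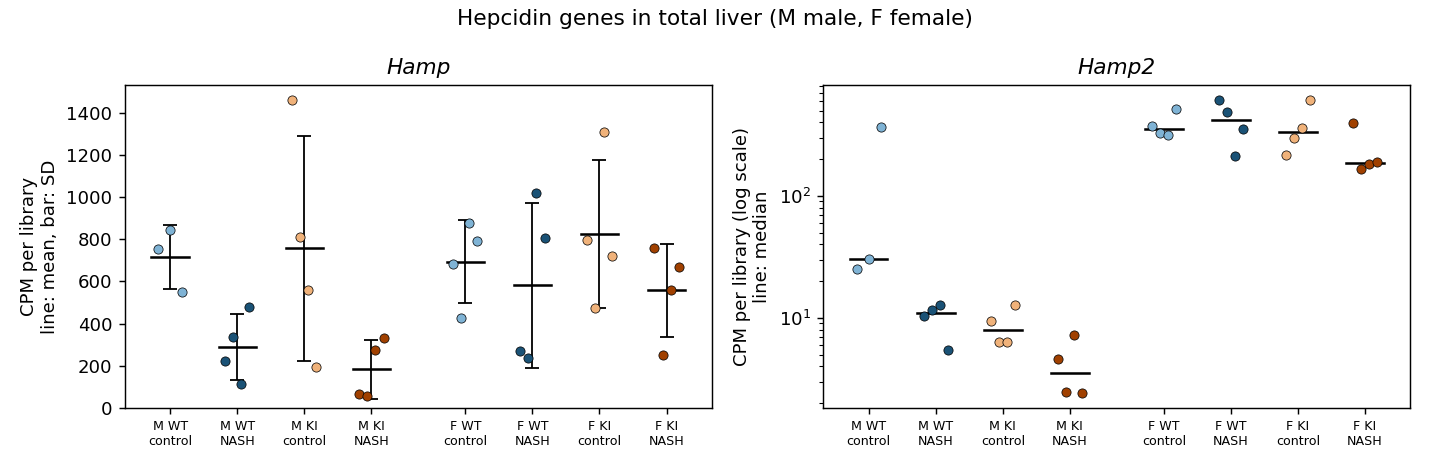
Hamp (left, linear axis, line at the mean with SD bars) and Hamp2 (right, log axis, line at the median) in CPM for each liver library, by sex (M, F), genotype and diet. Hamp overlaps between the sexes, while female Hamp2 lies at 166 CPM or more and male Hamp2 at 30.1 CPM or less, apart from 1 male WT control library at 366 CPM.

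Bmp6 (chromosome 13, 38345107 to 38500302, plus strand), the BMP ligand of the iron signal, was low in whole liver. In males it was 5.23, 5.45 and 5.63 CPM in WT control and 3.77, 2.03, 4.22 and 4.84 CPM in WT NASH, and in KI 5.55, 5.27, 4.58 and 5.97 CPM without against 2.01, 2.48, 4.41 and 3.81 CPM with the NASH diet. NASH livers were below control livers in both genotypes, yet neither comparison passed. The separation in WT depends on the combined library, whose members had 7.06 and 4.81 CPM, the second within the NASH range. In female KI control liver Bmp6 was 5.75, 9.96, 13.8 and 5.99 CPM, higher than in male KI control liver by a log2 fold change of 0.73 ± 0.27 (adjusted p = 0.0341, edgeR). That call was lost without any of 5 libraries (male KI control replicates 1, 2 and 3, female KI control replicates 2 and 3), at adjusted p from 0.0562 to 0.214. Sinusoidal endothelial markers, whose cells are the known source of Bmp6, summed to 373 to 464 CPM in female and 307 to 314 CPM in male KI control liver, and 4 of 8 were higher in females, none lower. Their part in the Bmp6 value was not tested. In all these bulk samples, fewer cells of a type and less RNA per cell cannot be told apart.

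Id1 (chromosome 2, 152736251 to 152737410, plus strand), a direct target of the BMP and SMAD pathway, separated the male genotypes on the NASH diet. It was 13.6, 16.7, 9.32 and 5.57 CPM in WT livers on the NASH diet and 2.47, 1.13, 2.93 and 2.46 CPM in KI NASH. No KI liver reached the lowest WT liver, and the log2 fold change was -2.33 ± 0.39 (adjusted p = 0.000649, edgeR). The control livers were at 6.41, 3.39 and 7.20 CPM in WT and 3.46, 3.97, 1.84 and 1.95 CPM in KI. The higher mean of WT NASH against WT control (log2 fold change 1.04 ± 0.41, adjusted p = 0.0831) passed with DESeq2 (adjusted p = 0.0481) and without WT NASH replicate 4 (adjusted p = 0.0324). In females Id1 was 4.36 to 16.6 CPM in KI control against 1.84 to 3.97 in male KI control, a difference of 2.10 ± 0.43 on the log2 scale (adjusted p = 0.000421, edgeR).

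The ferritin subunits followed the same contrast in male liver. Fth1 was 1561, 1406 and 1068 CPM in WT control and 1653, 2323, 2292 and 2375 CPM in WT NASH, all above the controls. It rose by a log2 fold change of 0.74 ± 0.18 (adjusted p = 0.0128, edgeR). In KI it was 884, 954, 1110 and 765 CPM on the control diet and 937, 1014, 1113 and 1346 CPM on the NASH diet. Every KI NASH liver was below every WT NASH liver, and Fth1 was lower in KI by a log2 fold change of -0.996 ± 0.17 (adjusted p = 0.000649). Ftl1 on the NASH diet was 3907, 6115, 4678 and 5318 CPM in WT and 2967, 3151, 3125 and 3927 CPM in KI, where the highest KI liver slightly exceeds the lowest WT liver. Ftl1 was lower in KI on the NASH diet by a log2 fold change of -0.63 ± 0.16 (adjusted p = 0.00855), and at an adjusted p of 0.0773 with replicate 3 alone for the combined library. Its change with the diet in WT, from 3876, 4153 and 2910 CPM on the control diet, was 0.51 ± 0.18 (adjusted p = 0.0547) and passed with DESeq2 (adjusted p = 0.0134). In female NASH liver Fth1 was 1304 to 1768 CPM in WT and 1179 to 1566 CPM in KI. The genotype difference on this diet differed between the sexes at 14.0% of genes, and by 0.85 ± 0.23 (female minus male) for Fth1 (adjusted p = 0.0147). The diet comparison in WT and the genotype comparison on the NASH diet use the same 4 male WT NASH livers, so they are not independent of each other. Ferritin genes have processed pseudogenes, and how reads shared with them were counted is not given in the sources used here.

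Slc11a1 (chromosome 1, 74375195 to 74386062, plus strand) encodes NRAMP1, which moves iron out of the phagosome of macrophages. In male liver it was 6.92, 8.90 and 13.0 CPM in WT control, 21.3, 17.6, 15.7 and 17.3 in WT NASH, 14.3, 10.5, 9.59 and 9.41 in KI control livers and 10.03, 10.7, 11.1 and 16.8 in those of KI mice on the NASH diet. It rose with the diet in WT by a log2 fold change of 0.95 ± 0.23 (adjusted p = 0.0131, edgeR) and was lower in KI than in WT on the NASH diet (-0.59 ± 0.21, adjusted p = 0.0385). The 13.0 CPM in WT control comes from the mean counts of replicates at 16.2 and 11.1 CPM, the first of which lies inside the NASH range. The first call was lost without WT control replicate 1 or 2 (log2 fold changes 0.76 and 0.88, adjusted p = 0.0634 and 0.0630). The second was lost in 6 of 15 such fits, namely without replicate 1, 2 or 4 of WT NASH or replicate 1, 2 or 3 of KI NASH, at adjusted p up to 0.102. Of the lipid-associated macrophage markers 2 of 4 rose and 1 fell with the diet in WT, where the list summed to 293 to 511 CPM on the control diet and 76.2 to 208 CPM on the NASH diet. In KI against WT on the NASH diet 3 of 4 were lower, with sums of 59.0 to 154 CPM in KI. Recruited monocyte markers summed to 8.72 to 17.9 CPM in WT control, 19.9 to 45.8 CPM in WT NASH and 7.45 to 20.1 CPM in KI NASH, with 1 of 5 higher by diet and 2 of 5 lower in KI. Stellate cell markers summed to 305 to 448, 476 to 734 and 266 to 346 CPM in the same groups, with 2 of 5 higher by diet and 3 of 5 lower in KI. The stellate sums of WT NASH did not overlap those of WT control or KI NASH, and the lipid-associated sums were highest in WT control. The lipid-associated sum reads mainly Fabp5 and Cd9, with medians of 53.8 and 25.7 CPM over the liver libraries. Trem2 and Gpnmb had medians of 1.04 and 0.562 CPM, so the sum is no measure of these cells. Hepatocyte markers fell with the diet in WT (5 of 8 lower, summed 84639 to 94439 CPM against 121246 to 200605 CPM) and 4 of 8 were higher in KI on the NASH diet. The part of these cells in the Fth1, Ftl1, Id1 and Slc11a1 values was not tested.

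**Figure D3:**
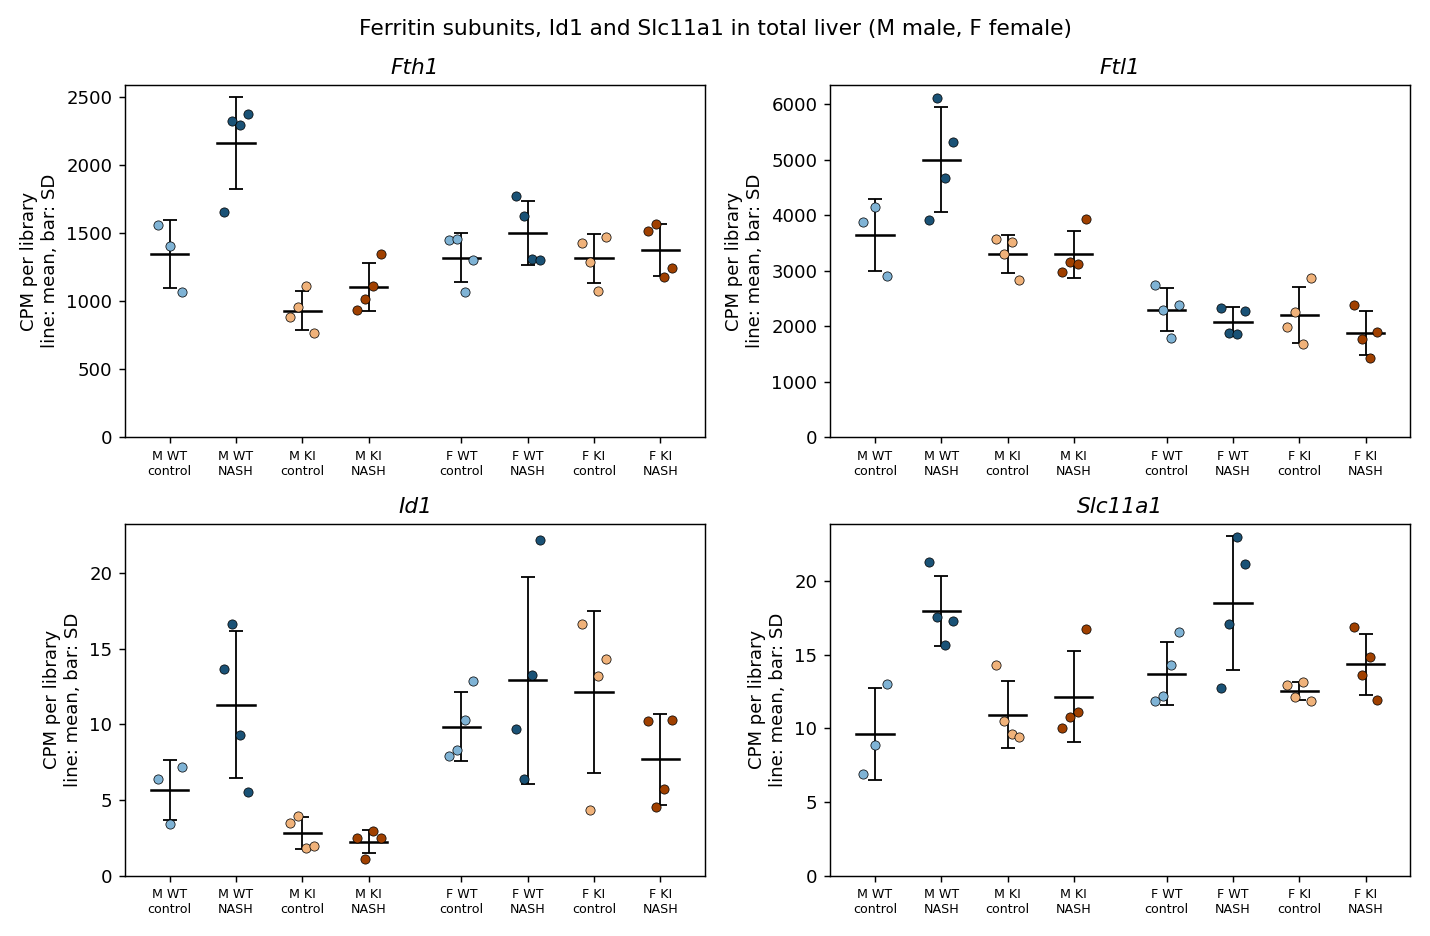
Fth1, Ftl1, Id1 and Slc11a1 in CPM for each liver library, by sex (M, F), genotype and diet, with the mean and SD of each group. The male WT NASH livers have the highest mean of the male groups in each panel, and for Fth1 and Id1 they lie wholly above the male KI NASH livers.

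Transferrin and its receptor showed few changes in liver. Trf (chromosome 9, 103204001 to 103230444, minus strand), a product of hepatocytes, had group means between 14813 ± 1718 CPM (SD, n = 4) in female KI NASH and 22460 ± 2098 CPM (SD, n = 3) in male WT control. It was lower in females than in males in WT control (log2 fold change -0.45 ± 0.14, adjusted p = 0.0149, edgeR), where Ftl1 was lower too (-0.67 ± 0.19, adjusted p = 0.00909). In male WT liver Trf was 24526, 22523 and 20331 CPM on the control diet and 14320 to 20316 CPM on the NASH diet, a change that edgeR did not call and DESeq2 did (-0.35, adjusted p = 0.0113). The 20331 CPM comes from the mean counts of replicates at 13016 and 24678 CPM, and the first of these lies below every NASH liver. Both sex calls of WT were lost with replicate 3 alone for the combined library (-0.25 and -0.48 in that order), and without male WT control replicate 1 or 2. In KI on the control diet Ftl1 was again lower in females (-0.59 ± 0.18, adjusted p = 0.0115) while Fth1 was higher (0.50 ± 0.16, adjusted p = 0.0169). Without female KI control replicate 3 Ftl1 had an adjusted p of 0.0534, and without male KI control replicate 4 Fth1 had one of 0.0661. Tfrc in female KI liver was 26.6, 30.0, 91.3 and 68.4 CPM on the control diet and 10.05, 23.2, 15.4 and 12.4 CPM on the NASH diet. It fell by 1.84 ± 0.49 on the log2 scale (adjusted p = 0.0320), without overlap, though the call was lost without KI control replicate 3 or 4 or KI NASH replicate 1, 3 or 4 (adjusted p 0.0788 to 0.102). The same control livers were above male KI control livers, at 15.6 to 25.2 CPM (1.46 ± 0.45, adjusted p = 0.0132), which did not hold without female KI control replicate 3 (adjusted p = 0.0760). Erythroid markers, of a lineage that depends on Tfrc, summed to 142 to 188 CPM in male and 11.2 to 17.8 CPM in female KI control liver, and 1 of 3 tested, Alas2, was lower in females (-4.07). Their part in the sex values was not tested. Slc40a1 in liver stayed within 83.9 to 205 CPM over all libraries and passed in no comparison, except without female KI control replicate 1, where it was lower in female KI than WT control liver (-0.44, adjusted p = 0.0413) and higher with the diet in female KI (0.41, adjusted p = 0.0483).

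In sorted macrophages the exporter was the gene that moved throughout. Slc40a1 in males was 4326, 5755, 4395 and 4327 CPM in WT control and 2601, 2038, 2563, 1715 and 2805 CPM in WT NASH. In male KI it was 4052, 4053, 3389 and 4272 CPM on the control diet and 1329, 1448, 1971, 1441 and 3812 CPM on the NASH diet. All NASH libraries were below all controls in WT, while in KI 1 NASH library at 3812 CPM lay among the controls. In female WT it was 4490.1, 4057, 3994 and 4044 CPM on the control diet and 2335 to 3016 CPM (median 2668) on the NASH diet. In female KI it was 4599.5, 4596, 4304 and 3965 CPM against 1919 to 3595 CPM (median 3137), and neither female genotype overlapped between the diets. It fell by 1.02 ± 0.25 on the log2 scale in male WT (adjusted p = 0.0243, edgeR), by 0.97 ± 0.25 in male KI (adjusted p = 0.0105), by 0.65 ± 0.13 in female WT (adjusted p = 0.00641) and by 0.56 ± 0.13 in female KI (adjusted p = 0.0380). The diet changed 8.19% of 13036 genes in male WT, 24.0% in male KI, 12.9% of 12838 genes in female WT and 2.31% in female KI macrophages. Slc40a1 did not pass in a test of a difference between genotypes or sexes, except without male KI NASH replicate 5, the library at 3812 CPM. Without it Slc40a1 was lower in male KI than in male WT on the NASH diet (-0.60, adjusted p = 0.0367), and that genotype difference differed between the sexes (0.76, female minus male, adjusted p = 0.0148).

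Those falls differ in how firmly they stand. In male KI and female WT each of the fits without 1 library kept the call. In male WT it was lost without any WT control library or without WT NASH replicate 2 or 4 (adjusted p 0.0518 to 0.0986, log2 fold changes -1.06 to -0.88), and in female KI it was lost in 12 of 20 such fits (adjusted p up to 0.113). Without the 10 libraries of low Lyz2 the log2 fold changes were -1.01, -0.62 and -0.51 in male WT, female WT and female KI, at adjusted p of 0.0821, 0.369 and 0.477. That removal leaves 1 library in female WT control and 1 in female KI control, each assumed to vary like the other groups. The resident Kupffer cell markers moved beside Slc40a1: 5 of 8 fell in male KI, including Timd4 (-2.08) and Clec4f (-1.13), 1 of 8 in male WT, 2 of 8 in female WT and 1 of 8 in female KI. Their sum was 12585 to 27699 CPM in male KI NASH against 29471 to 32259 CPM in its controls. Of the lipid-associated macrophage markers 4 of 4 rose in both male genotypes and in female WT, and 1 of 4 in female KI. Of the recruited monocyte markers 2 of 5 rose in male WT, 3 of 5 rose and 1 fell (Plac8, -1.22) in male KI, and 1 of 4 tested rose in female WT. Their sums were 118 to 270 CPM without and 124 to 179 CPM with the NASH diet in male KI, and 245 to 321 against 95.9 to 222 CPM in female WT. Sinusoidal endothelial markers rose in male WT in 5 of 8. The part of these populations in the Slc40a1 value was not tested.

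Slc11a1, the phagosomal transporter, fell with the diet in macrophages of both male genotypes. It was 1097, 1077, 1000.1 and 982 CPM in WT control against 666, 839, 922, 680.3 and 829 CPM in WT NASH (-0.41 ± 0.10, adjusted p = 0.0210, edgeR). In KI it was 937, 1024, 1179 and 1095 CPM against 709.9, 689, 729, 695 and 720.4 CPM in KI NASH (-0.56 ± 0.10, adjusted p = 0.00133). Neither genotype overlapped. In females it was 753 to 904 CPM on the control diet and 647 to 915 CPM on the NASH diet over both genotypes, and no diet call was made. The diet effect in WT macrophages differed between the sexes at 0.0224% of 13373 genes and for none of the 10 by edgeR (3 at an unadjusted p under 0.05) and for 1, Slc11a1, by DESeq2 (0.41, adjusted p = 0.0293). Of all genes, 2281 had an unadjusted p under 0.05 in that comparison, and DESeq2 called 275. The WT call was lost in 4 of 18 fits that left out 1 library, namely control replicate 1, 2 or 3 or NASH replicate 4 (adjusted p up to 0.0791) and without the low-Lyz2 libraries (0.0697).

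**Figure D4:**
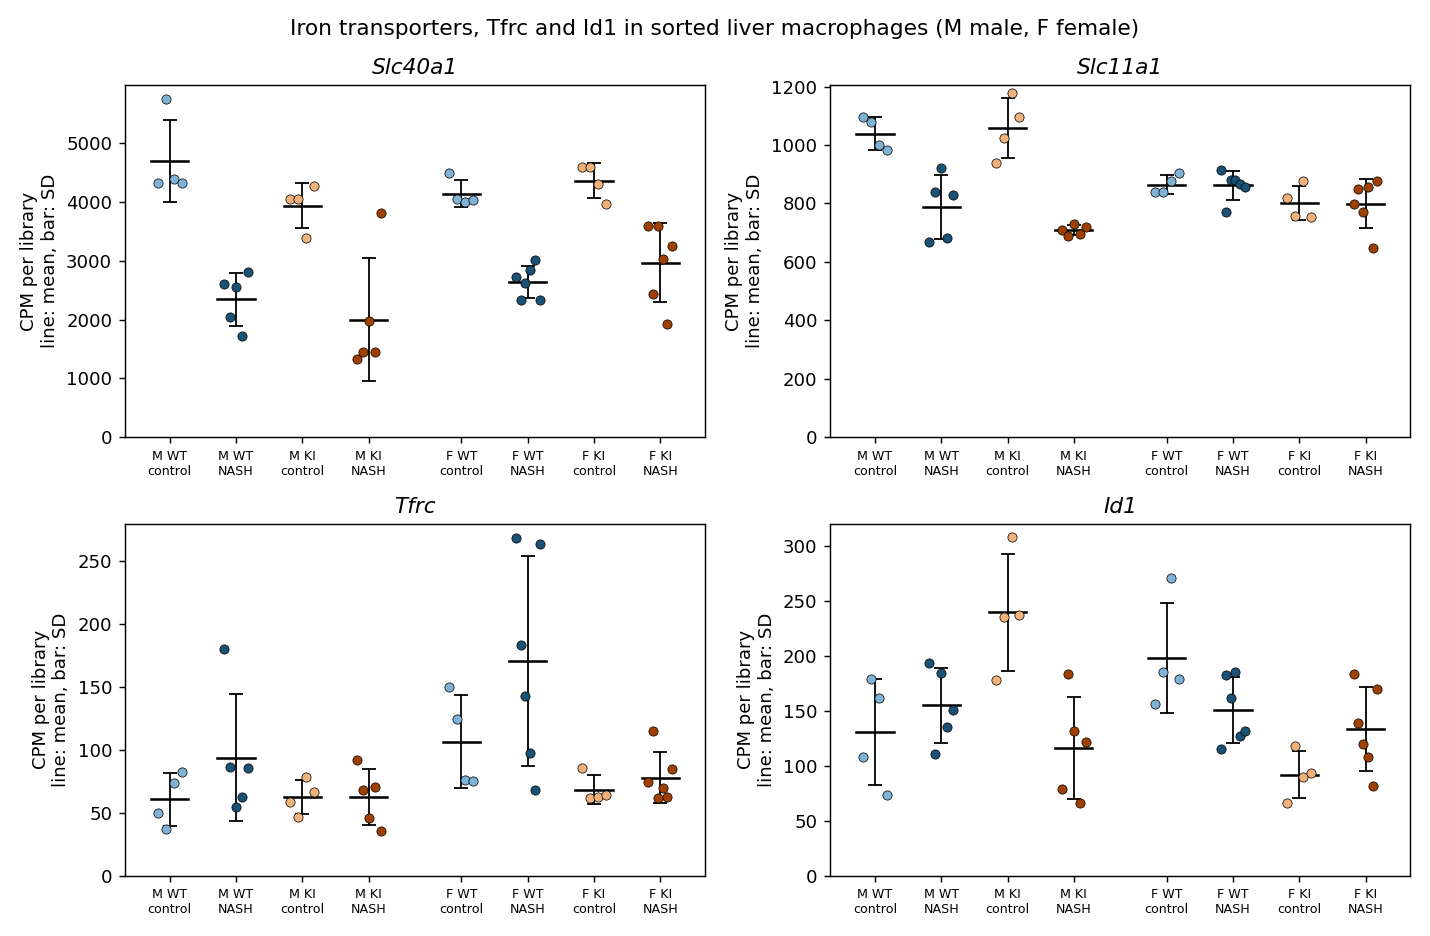
Slc40a1, Slc11a1, Tfrc and Id1 in CPM for each sorted macrophage library, by sex (M, F), genotype and diet, with the mean and SD of each group. Slc40a1 is lower on the NASH diet in all 4 pairs of groups, with 1 male KI NASH library at 3812 CPM inside the control range, while Tfrc overlaps between the diets in each pair.

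Storage and uptake genes and Bmp6 showed few calls in macrophages. Ftl1 ran from 5127 to 7753 CPM and Fth1 from 2079 to 4215 CPM over all 38 libraries, and neither passed in any comparison. Bmp6 in male WT was 2.70 to 7.08 CPM on the control diet and 7.42 to 26.6 CPM on the NASH diet, without overlap, and was called by DESeq2 (1.397, adjusted p = 0.0319) but not by edgeR. Tfrc was 37.1 to 82.5 CPM in male WT control and 54.7 to 180.0 CPM in male WT NASH, and 75.4 to 150.04 CPM in female WT control and 67.9 to 268 CPM in female WT NASH, with no diet call. Tfrc in KI was 46.7 to 78.4 CPM in male control, 35.4 to 92.2 CPM in male NASH, 62.0 to 85.7 CPM in female control and 61.4 to 115 CPM in female NASH libraries. Between the female genotypes on the NASH diet edgeR gave -1.13 ± 0.28 (adjusted p = 0.0689), a difference that DESeq2 called (-1.13, adjusted p = 0.00617), as did edgeR without KI NASH replicate 2 (-1.27, adjusted p = 0.0171). Trf in male WT fell from 1595, 1611, 2006 and 1207 CPM to 607, 1039.8, 1440.4, 651 and 1206 CPM (-0.71 ± 0.21, adjusted p = 0.0469), with overlap, and lost its call in 15 of 18 fits without 1 library (adjusted p up to 0.157). Trf was lower in female than in male KI control macrophages (-0.98 ± 0.21, adjusted p = 0.00613), at 872 ± 295 against 1725 ± 116 CPM (SD, n = 4 each), without overlap.

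Id1 in macrophages was read from 65.9 to 308 CPM. In male KI it fell with the diet from 178, 236, 308 and 237 CPM to 79.2, 183, 132, 65.9 and 121 CPM (log2 fold change -1.03 ± 0.29, adjusted p = 0.0170, edgeR). The highest NASH library lies above the lowest control, and without KI control replicate 3 the adjusted p was 0.0586. In females on the control diet, where the genotypes differed at 4.64% of genes, Id1 was lower in KI, at 66.1, 118, 90.2 and 93.5 CPM against 156, 186, 271 and 179 CPM in WT, without overlap (-1.10 ± 0.23, adjusted p = 0.0120). Without the low-Lyz2 libraries, which are 3 of the 4 in each of these groups, it was -0.98 (adjusted p = 0.746). In the KI group endothelial markers summed to 1646 to 1797 CPM, against 1932 to 2384 CPM for WT, and hepatocyte markers, 2 of 8 of them lower in KI, to 24.7 to 68.8 against 121 to 359.5 CPM. Their part in the Id1 value was not tested. In male macrophages the genotypes differed at 0% of genes on the control diet (862 at an unadjusted p under 0.05, 5 by DESeq2) and at 3.13% on the NASH diet, and the diet effect differed at 0% (1595 and 250 in the same order). None of the 9 iron genes tested in males passed on the control diet (2 at an unadjusted p under 0.05, 0 by DESeq2) or in the difference of diet effects (2, and 1 by DESeq2). In females the genotypes differed at 0.561% of genes on the NASH diet and the diet effect at 0.288%, with none of the 10 passing (3 and 1 at an unadjusted p under 0.05, 1 and 0 by DESeq2). The same counts over all genes were 2377 and 1178, and 532 and 140 by DESeq2.

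Between the sexes, control-diet macrophages differed at 0.0523% of 13373 genes in WT and 8.08% in KI. None of the 10 passed in WT (4 at an unadjusted p under 0.05, 0 by DESeq2, beside 1346 and 74 of all genes). In KI 4 were lower in females. Bmp6 was 7.003, 2.08, 1.03 and 3.55 CPM in females against 12.4, 12.6, 17.7 and 21.0 CPM in males (-2.21 ± 0.63, adjusted p = 0.0279, edgeR), and that call was lost without male KI control replicate 3 or 4 or female KI control replicate 2, 3 or 4 (adjusted p 0.0517 to 0.0889). Id1 was lower by a log2 fold change of -1.38 ± 0.28 (adjusted p = 0.00457) and Slc11a1 by -0.40 ± 0.09 (adjusted p = 0.00808), beside Trf above. Sinusoidal endothelial markers were lower in these female libraries in 5 of 8 and hepatocyte markers in 4 of 8, with endothelial sums of 1646 to 1797 CPM against 2383 to 2769 CPM. None of the 4 calls passed without the low-Lyz2 libraries (adjusted p 0.447 to 0.641), which leaves 1 female KI control library. The log2 fold changes were then -2.09 for Bmp6, -1.19 for Id1, -0.42 for Slc11a1 and -0.49 for Trf. The KI effect on the NASH diet differed between the sexes at 4.37% of genes and at none of the 10 by edgeR (3 at an unadjusted p under 0.05, and 1, Hamp, by DESeq2, -3.61, adjusted p = 0.0394), where 8 of 8 hepatocyte markers differed in the same direction.

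Hamp in sorted macrophages was close to the limit of counting. It was 0.462, 0.295, 0.324 and 0.422 CPM in male KI control, from 5 to 8 counts a library, and 2.71, 1.26, 5.12, 7.05 and 2.08 CPM in male KI NASH, from 27 to 150 counts. It rose with the diet by a log2 fold change of 3.28 ± 0.75 (adjusted p = 0.00561, edgeR) and was higher than in male WT NASH, at 0.1003 to 1.15 CPM, by 2.58 ± 0.65 (adjusted p = 0.0404). The second call was lost in 10 of 18 fits without 1 library (adjusted p up to 0.138) and without the low-Lyz2 libraries (0.0644). Hepatocyte markers rose in the same comparisons, 8 of 8 with the diet and 7 of 8 between the genotypes, and summed to 482 to 2938 CPM in male KI NASH, 185 to 281 CPM in male KI control and 70.9 to 341 CPM in male WT NASH. In female WT, where 6 of 8 hepatocyte markers rose with the diet, Hamp was not called (1.51 ± 0.998, adjusted p = 0.337), and NASH replicates 1 and 2, with hepatocyte sums of 644 and 639.5 CPM, had Hamp at 0 and 0.476 CPM. Alb, the leading hepatocyte transcript, ran from 17.9 to 1592 CPM over the macrophage libraries. Hamp2 was under the count filter in male macrophages, at 0 to 0.295 CPM except in the library with contradicting sex genes (1.90 CPM), and was 0 to 5.39 CPM in female macrophages. The part of hepatocyte RNA in these values was not tested.

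**Figure D5:**
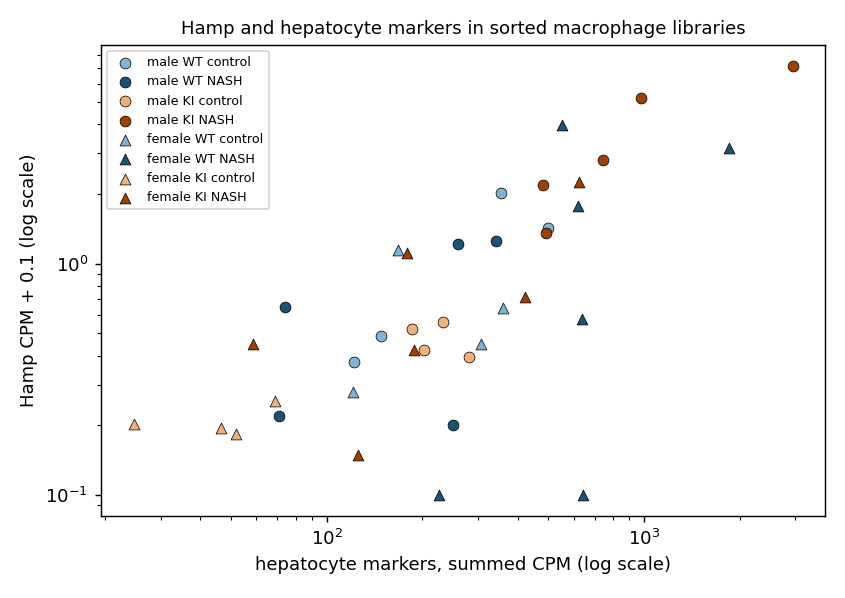
Hamp (CPM plus 0.1) against the summed CPM of 8 hepatocyte markers in each sorted macrophage library, both on log axes, with circles for males and triangles for females. The 5 male KI NASH libraries have hepatocyte sums of 482 CPM or more, and the library with the highest sum, 2938 CPM, also has the most Hamp, 7.05 CPM, while female WT NASH libraries at 644 and 227 CPM have none and another at 553 CPM has 3.89 CPM.

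The other genes of the pathway were read from 4 lists, beside the share of all genes tested that passed. In male WT liver on the NASH diet, where that share was 21.0%, 5 of 19 tested genes of the BMP and SMAD arm passed (1 higher, 4 lower, median -0.14 against -0.01 over all genes), among them the ligand Bmp2 (-0.82 ± 0.21), transferrin receptor 2 (Tfr2, -0.58 ± 0.13) and the BMP co-receptor hemojuvelin (Hjv, 0.57 ± 0.16). In the interleukin 6 arm 1 of 8 passed, Stat3 (-0.69 ± 0.20). Of the iron uptake, storage and export genes 6 of 19 passed (2 higher, 4 lower), with the siderophore binder Lcn2 (4.37 ± 1.37), the ferroxidase Heph (1.43 ± 0.29) and the iron importer Slc39a14 (-1.11 ± 0.19). Of the heme genes 6 of 15 passed (3 in each direction), with the hemoglobin and haptoglobin receptor Cd163 (-2.59 ± 0.75), the heme transporter Slc48a1 (0.95 ± 0.18) and haptoglobin (Hp, 0.71 ± 0.23).

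Between the male genotypes on the NASH diet more of these genes passed, as did more of all genes (37.0%). In the BMP and SMAD arm 10 of 19 passed (6 higher and 4 lower in KI, median 0.18 against -0.02), with the inhibitory Smad6 (-0.93 ± 0.22), Tfr2 (0.68 ± 0.12) and the transcription factor Atoh8 (-0.67 ± 0.22). In the interleukin 6 arm 4 of 8 were higher, none lower (median 0.76), with the receptor chains Il6ra (1.36 ± 0.33) and Il6st (0.78 ± 0.17) and with Stat3 (0.95 ± 0.19). Of the uptake, storage and export genes 7 of 19 passed (5 higher, 2 lower), with Heph (-1.59 ± 0.26), Slc39a14 (1.11 ± 0.18) and the metalloreductase Steap4 (0.98 ± 0.36). Of the heme genes 7 of 15 passed (3 higher, 4 lower), with Cd163 (2.88 ± 0.72), the hemopexin receptor Lrp1 (1.17 ± 0.14) and the heme-responsive repressor Bach1 (0.95 ± 0.28). These comparisons share the 4 WT NASH livers.

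In female KI liver on the NASH diet, where 8.83% of all genes passed, 1 of 19 genes of the BMP and SMAD arm, 2 of 8 of the interleukin 6 arm, 2 of 19 of the uptake, storage and export list and 2 of 17 of the heme list passed, among them Il6ra (-1.84 ± 0.40), Il1b (2.37 ± 0.59), Cd163 (-1.68 ± 0.32) and Slc39a14 (-1.22 ± 0.34). On the control diet (7.57% of genes) Lcn2 was higher in female KI than in female WT liver (4.07 ± 0.98), as were Il6ra (1.47 ± 0.40), Stat3 (0.90 ± 0.26) and Slc39a14 (1.18 ± 0.34). The diet effect differed between the female genotypes (4.77% of genes) for Lcn2 (-7.11 ± 1.35), Steap4 (-3.06 ± 0.77) and Il6ra (-2.23 ± 0.56). For the control-diet comparison and this one the counts per list are not given here.

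In macrophages Spic, a transcription factor of iron-recycling macrophages, was lower on the NASH diet in both male genotypes (-0.55 ± 0.13 in each). In male KI on the NASH diet, where 24.0% of all genes passed, 8 of 19 genes of the BMP and SMAD arm passed (4 in each direction), led by Hjv (3.85 ± 0.73), Tmprss6 (2.99 ± 0.64) and Fgl1 (2.95 ± 0.71), and 6 of 16 heme genes (3 in each direction), led by Hp (3.42 ± 0.56) and hemopexin (Hpx, 3.00 ± 0.57). These 5 genes are known as transcripts of hepatocytes, and they rose where 8 of 8 hepatocyte markers rose. In female WT, where 12.9% passed, the BMP and SMAD list gave 4 of 19 (3 higher, 1 lower) and Hp (2.38 ± 0.70) and Hpx (2.11 ± 0.61) were higher, beside 6 of 8 hepatocyte markers. Whether hepatocyte RNA accounts for any of these rises was not tested.

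Within groups, 28 relations between genes across libraries were tested on log2(CPM + 1) after subtracting group means, with 100000 permutations, two-sided. Fth1 and Ftl1 varied together in male liver (Pearson r = 0.847, permutation p = 9e-05, adjusted 0.00252; Spearman rho = 0.761, permutation p = 0.00136, adjusted 0.0302; n = 15). Without the 2 libraries farthest from the median r was 0.730. In female liver r was 0.647 (permutation p = 0.00724, adjusted 0.0405; rho = 0.627, permutation p = 0.0111, adjusted 0.0520; n = 16), and 0.467 without the 2 farthest libraries. Hamp and Id1 varied together in female liver (r = 0.747, permutation p = 0.00091, adjusted 0.00849; rho = 0.653, permutation p = 0.00734, adjusted 0.0514; n = 16; 0.651 without the 2 farthest), and the value in male liver was r = 0.267 (permutation p = 0.333, adjusted 0.551; n = 15). That the sexes differ in this relation was not tested. Hamp showed no relation past the threshold with Hamp2, Bmp6, Smad7 or Socs3 in either sex (adjusted permutation p 0.116 to 0.654), though without subtracting group means Hamp and Bmp6 in male liver had r = 0.676 (adjusted permutation p = 0.0228). In male macrophages Slc40a1 varied with Hmox1, the enzyme that opens the heme ring (r = 0.716, permutation p = 0.00044, adjusted 0.00616; rho = 0.688, permutation p = 0.00216, adjusted 0.0302; n = 18; 0.636 without the 2 farthest). In female macrophages that r was 0.549 (permutation p = 0.0109, adjusted 0.0509; n = 20), and r with Spic was 0.671 (permutation p = 0.00257, adjusted 0.0180; rho = 0.561, permutation p = 0.0111, adjusted 0.0520), falling to 0.474 without the 2 farthest libraries.

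The genes most like Hamp over the liver libraries, by the lower of the Pearson r in 15 male and 16 female libraries among 11717 genes with a mean above 1 CPM, were Adk (0.746 and 0.744), Laptm4a (0.756 and 0.681), Ccdc9 (0.667 and 0.659), Tmco1 (0.649 and 0.683) and Gdi2 (0.676 and 0.642). Those most like Slc40a1 over 18 male and 20 female macrophage libraries, among 11731 genes, were 6430548M08Rik (0.908 and 0.909), Fam78a (0.867 in each sex), Tor4a (0.849 and 0.864), Dnajc14 (0.845 and 0.862) and Dse (0.898 and 0.835). The libraries of a set share their diet and genotype groups, so these values hold the group differences as well as the variation within groups.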

How the data were processed

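Poly(A) RNA of 70 libraries was measured. The values are raw counts that the authors deposited for each gene symbol in 3 tables (male liver, female liver, macrophages of both sexes), with totals of 11245097 to 29966174 per library. Per the labels' protocols, RNA came from illustra RNAspin columns for liver and miRNeasy micro columns for macrophages, and TruSeq Stranded mRNA libraries were sequenced. The build is mm10, per the submitters' processing notes. Not given in the sources used here are aligner, counter, gene models and strandedness of counting; overlapping and near-identical genes are therefore uncertain.

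Counts were analysed with edgeR 4.0.16 in R 4.3.3: TMM scaling, filterByExpr (minimum count 10, minimum total 15), a quasi-likelihood test on group means, and adjustment by Benjamini-Hochberg across the tested genes, threshold 0.05. Each tissue and sex was fitted on its own for 5 comparisons, and both sexes of a tissue together for 4, giving 28 comparisons. The SE is the log2 fold change over the square root of F. Male liver WT control replicates 3 and 4, alike within sampling noise at summed counts of 20 to 200, entered as their rounded mean, and libraries with contradicting sex genes kept their labels. The alternatives were DESeq2 1.42.0, its size factors, no count filter, a replicate block and leaving out each library. Others left out the libraries with contradicting sex genes or those with low Lyz2. The steps were tested on simulated data. Hjv was found under its older symbol Hfe2, and Erfe, Flvcr1 and Flvcr2 are not in the male liver table. Sequences come from RefSeq (GRCm38.p6) and GENCODE M21, where Slc40a1, Trf and Id1 had no promoter entry.

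All 10 genes are described by level, with fold changes for those past the threshold. For the pathway lists, counts with up to 3 genes of largest change are given in some comparisons only. Elsewhere single genes are named without the count of their list, and these cannot be set against the share of all genes. Genes that DESeq2 gave without an adjusted p count neither as kept nor lost. The 10 genes and the lists were chosen with earlier results of these data known.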

Additional observations from a re-analysis of the deposited data

Results flagged for a closer look

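In 14 of 150 checks, each of 1 gene in 1 group of 4 to 6 libraries, 1 value stood apart from the others of its group (Dixon's test at the 95% level), where chance gives about 1 in 20. In liver these were the lowest Fth1 of male WT NASH, replicate 1 (1653 CPM), the highest Slc11a1 of male KI NASH, replicate 4 (16.8 CPM), the highest Hamp2 of female KI NASH, replicate 1 (392 CPM), and the highest Tfrc of female WT control, replicate 2 (54.0 CPM) and of female WT NASH, replicate 3 (63.2 CPM). In male macrophages Slc40a1 was highest in WT control replicate 2 (5755 CPM) and in KI NASH replicate 5 (3812 CPM), Hamp2 in WT control replicate 4 (1.90 CPM) and WT NASH replicate 1 (0.251 CPM), and Tfrc in WT NASH replicate 1 (180.0 CPM). Ftl1 was lowest in WT control replicate 4 (5942 CPM) and Fth1 in KI control replicate 4 (2875 CPM). In female macrophages Slc40a1 was highest in WT control replicate 1 (4490.1 CPM) and Tfrc in KI control replicate 1 (85.7 CPM). WT control replicate 4 of the male macrophages is the library with contradicting sex genes.

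An effect differed between the sexes for 2 of the genes in liver. For Hamp2 the diet effect in WT differed by 3.92 on the log2 scale (female minus male), and by 1.57 without the library with contradicting sex genes. For Fth1 the KI effect on the NASH diet differed by 0.85.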

How the results depend on the processing

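Of 1017 refits of the 34 called fold changes, 915 kept the call, 102 lost it and 0 turned direction. Counts of called iron genes moved by over 1.5 times as follows. With DESeq2 they were 5 (main 3) for the male liver diet effect in WT, 2 (main 1) for male liver KI against WT on the control diet, 2 (main 1) for that of female macrophages and for the sex difference of the liver KI effect, and 1 (main 0) for the genotype difference of diet effects in male liver, female liver and male macrophages, for female macrophage KI against WT on the NASH diet, and for the sex differences of the macrophage diet and KI effects. With replicate 4 alone for the combined library, male liver KI against WT on the control diet gave 3, and with replicate 3 alone the sex difference of WT control liver gave 1 (main 2). Without libraries with contradicting sex genes the male macrophage diet effect in WT gave 1 (main 3), the sex difference of WT control liver 4 and the sex difference of the liver diet effect 0 (main 1). Without low-Lyz2 libraries 0 remained in the macrophage comparisons of male and female diet effects in WT, female diet effect in KI, male KI against WT on the NASH diet, female KI against WT on the control diet, and sex in KI control. Without the count filter the female macrophage diet effect in KI gave 0 (main 1).

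Leaving out 1 library at a time gave 0 to 1 for male liver KI against WT on the control diet, 0 to 2, 0 to 1 and 0 to 1 for the female liver diet effect in KI, KI against WT on the control diet and difference of diet effects, 0 to 3 and 0 to 2 for the male macrophage diet effect in WT and KI against WT on the NASH diet, 0 to 1, 1 to 2 and 0 to 1 for the female macrophage diet effect in KI and KI against WT on the control and NASH diets, 0 to 4, 3 to 6, 0 to 1 and 1 to 2 for the 4 liver sex comparisons (WT control, KI control, diet effect, KI effect), and 0 to 1 for the sex difference of the macrophage KI effect. The cause was not tested, beyond the smaller number of libraries.

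Same-numbered libraries of different groups correlated at -0.339 to 0.583, with medians of -0.057 to 0.0437 per tissue and sex. In male and female liver 6 of 21 and 6 of 24 such pairs had r over 0.1. In male and female macrophages these were 10 of 25 and 8 of 26. Libraries of unlike number were not compared, so whether the replicate numbers pair the samples cannot be decided. With the number as a block, the count was 0 for male liver KI against WT on the control diet (main 1) and 0 for the female macrophage diet effect in KI (main 1), and Slc11a1 between the male liver genotypes on the NASH diet had an adjusted p of 0.0606 (edgeR). Relations computed without subtracting group means turned from negative to 0.358 for Hamp with Hamp2 and to 0.0369 for Tfrc with Fth1, both in male liver; Fth1 with Ftl1 in female liver and Slc40a1 with Spic in female macrophages were then no longer past the threshold (r = 0.481 and 0.385). Past the threshold only without that step were Hamp with Bmp6 in male liver (r = 0.676, adjusted permutation p = 0.0228), Slc40a1 with Slc11a1 and with Spic in male macrophages (r = 0.791 and 0.876, adjusted permutation p = 0.00196 and 0.00014) and Slc40a1 with Hmox1 in female macrophages (r = 0.674, adjusted permutation p = 0.00686). Depth limits Hamp, Hamp2 and Bmp6 in macrophages.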
